A study of Mus musculus with 3 samples.

Results

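The transcripts described here encode the Notch receptors Notch1, Notch2, Notch3, and Notch4, the ligands Jag1, Jag2, Dll1, and Dll4, and the target genes Hes1 and Hey1, as measured in skin-resident macrophages during telogen, the resting phase of the hair follicle (HF). The genes were chosen by name and found on the array through the RefSeq transcript of each probe, which gave 12 probes for these 10 genes among 26028 named probes for 19738 genes. CD11b+Gr1-F4/80+ cells were isolated by FACS from the backskin of CD1 mice at early telogen (Te, P42), mid telogen (Tm, P55), and late telogen (Tl, P69), and all groups shared this background, without any treatment or transgene. CD11b and F4/80 are surface markers of myeloid cells and macrophages, and Gr1 marks granulocytes and some monocytes. Each stage was represented by 1 single-color array of amplified RNA from a pool of 3 littermates, so that there are no replicates, no test between stages, and no p-value. The labels date Te to P42, which is not the day that the paper gives for this stage.

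Notch receptors are single-pass membrane proteins that are activated by ligands of the Jagged and Delta-like families on a neighboring cell. Endocytosis of the bound ligand exposes the receptor to an ADAM protease and then to gamma-secretase, which frees the intracellular part of Notch to enter the nucleus. There it joins Rbpj and a Mastermind protein and replaces corepressors at target genes, among them the Hes and Hey families of transcriptional repressors. In skin the pathway is known for its roles in epidermal differentiation, in the HF, and in blood vessels, and in myeloid cells it takes part in the fate choices of monocytes and dendritic cells.

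The sequences upstream of the transcription start of Notch1, Notch3, Jag1, and Jag2 are shown for the letters they hold. These genes were past 2-fold at both later stages as scaled below. Next to them stand the sequences of Hes5 and Lfng, a pair of textbook Notch targets. The RefSeq table used here (GRCm38.p6) held a promoter window, from 250 bases before to 50 after the start, for 8 of the 10 genes, with Hes1 and Hey1 named only. The windows were searched on both strands for TGGGAA, the core of the Rbpj site (TTCCCA on the other strand), for GGGCGG, the GC box bound by Sp1 (CCGCCC on the other strand), and for CACGTG, an E-box that reads the same on both strands. TGGGAA was found in 25.6%, GGGCGG in 35.7%, and CACGTG in 7.15% of all 32851 windows of this length. Each line below gives the 250 upstream bases, 5′ to 3′ on the strand of the gene. Capitals mark the GC box in Notch1, Notch3, and Jag2, and the Rbpj core in Hes5 and Lfng, while Jag1 held none of the 3 motifs.
Notch1, chr2:26503823-26504072, minus strand: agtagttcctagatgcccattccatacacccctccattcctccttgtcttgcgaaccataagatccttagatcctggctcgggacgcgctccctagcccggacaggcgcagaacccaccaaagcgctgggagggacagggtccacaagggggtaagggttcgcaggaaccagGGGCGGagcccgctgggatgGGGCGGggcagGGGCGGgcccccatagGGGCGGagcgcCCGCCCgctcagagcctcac
Notch3, chr17:32166891-32167140, minus strand: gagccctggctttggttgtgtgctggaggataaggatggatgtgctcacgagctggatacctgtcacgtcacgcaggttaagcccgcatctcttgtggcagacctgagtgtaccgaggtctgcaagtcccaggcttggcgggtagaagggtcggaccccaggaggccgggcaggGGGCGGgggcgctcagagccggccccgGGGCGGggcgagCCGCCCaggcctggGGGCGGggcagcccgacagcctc
Jag1, chr2:137116521-137116770, minus strand: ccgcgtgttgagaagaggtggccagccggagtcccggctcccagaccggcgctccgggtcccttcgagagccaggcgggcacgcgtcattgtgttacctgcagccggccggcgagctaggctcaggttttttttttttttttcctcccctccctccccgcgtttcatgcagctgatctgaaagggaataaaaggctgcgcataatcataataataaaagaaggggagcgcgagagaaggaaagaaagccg
Jag2, chr12:112929496-112929745, minus strand: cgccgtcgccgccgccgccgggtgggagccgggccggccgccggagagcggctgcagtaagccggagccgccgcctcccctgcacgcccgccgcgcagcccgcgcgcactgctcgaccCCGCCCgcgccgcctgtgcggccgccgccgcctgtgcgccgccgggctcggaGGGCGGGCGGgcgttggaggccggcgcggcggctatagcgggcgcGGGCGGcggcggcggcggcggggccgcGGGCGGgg
Hes5, chr4:154960673-154960922, plus strand: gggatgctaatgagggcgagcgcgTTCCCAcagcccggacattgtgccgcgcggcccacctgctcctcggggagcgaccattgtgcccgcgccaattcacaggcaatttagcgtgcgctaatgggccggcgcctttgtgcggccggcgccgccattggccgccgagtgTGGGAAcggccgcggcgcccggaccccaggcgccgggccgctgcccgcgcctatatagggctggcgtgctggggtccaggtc
Lfng, chr5:140607091-140607340, plus strand: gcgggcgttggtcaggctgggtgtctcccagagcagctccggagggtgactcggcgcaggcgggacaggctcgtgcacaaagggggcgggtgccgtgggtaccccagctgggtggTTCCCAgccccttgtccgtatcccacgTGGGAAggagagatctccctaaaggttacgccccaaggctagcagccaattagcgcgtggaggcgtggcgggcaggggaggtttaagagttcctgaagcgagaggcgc

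GC boxes stood in the windows of 5 of the 8 genes, with 5 matches in Notch1, 7 in Notch2, 4 in Notch3, 5 in Jag2, and 2 in Dll4, and with none in Notch4, Jag1, or Dll1. Some of the matches in Jag2 overlap one another. The Rbpj core and the E-box were found in none of the 8. Among the other Notch pathway genes, 45 had a window, of which 15 held TGGGAA, 33 GGGCGG, and 5 CACGTG. Hes5 held TGGGAA at -226 to -221 on the minus strand and at -82 to -77 on the plus strand of the gene, counted from the start. Lfng held it at -135 to -130 and at -108 to -103, where the second match shares bases with a CACGTG at -112 to -107. Notch1 and Notch3, the receptor genes that differed from Te in opposite directions as scaled below, thus both carry GC boxes. These letters are a description of these windows and not of sites in use.

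The values are log2 signals relative to the 75th percentile of all probes of the same array (level), and differences of these levels between arrays (change). A change of 1 is 2-fold. Levels are compared only between arrays for the same probe, since the brightness of different probes cannot be compared. The sole error available is that of repeated spots of 1 probe on 1 array, whose median SD was 0.11 to 0.13 on the 3 arrays, which gives an SD of 0.17 for a change from Te and 0.16 for the change between Tm and Tl. For dim probes, over 3 below the 75th percentile, the SD of a change was 0.34 to 0.38. This error covers spots of the same labeled sample and leaves out mice, sorting, and amplification. The arrays differed in signal, with the 75th percentile at 414, 496, and 927 from Te to Tl, so that scaling lowered every change from Te to Tl by 1.16 and every change from Te to Tm by 0.26. Each change was therefore also read after 4 other scalings and 1 other background correction. The Tm and Tl columns of the log2 table that the authors deposited match the scanner files assigned to Tl and Tm, with a residual SD of 0.0044 and 0.0057 (log2) against 1.29 as labeled. The scanner files were used as assigned, and under the other assignment every Tm value below becomes a Tl value and the reverse.

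All 10 genes were well above background on all 3 arrays. Notch1 was higher at Te than later as scaled here, but without scaling its change at Tl was 0.10. Notch3, Jag1, and Jag2 were higher at Tm and at Tl than at Te, with or without scaling. Notch2, Notch4, Hes1, and Hey1 were within 2-fold of Te as scaled here, but without scaling Notch2 (1.31), Notch4 (1.27), and Hes1 (1.42) passed it at Tl. Dll1 and Dll4 each passed 2-fold at 1 stage, and the size of those changes depended on the scaling.

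**Figure D1:**
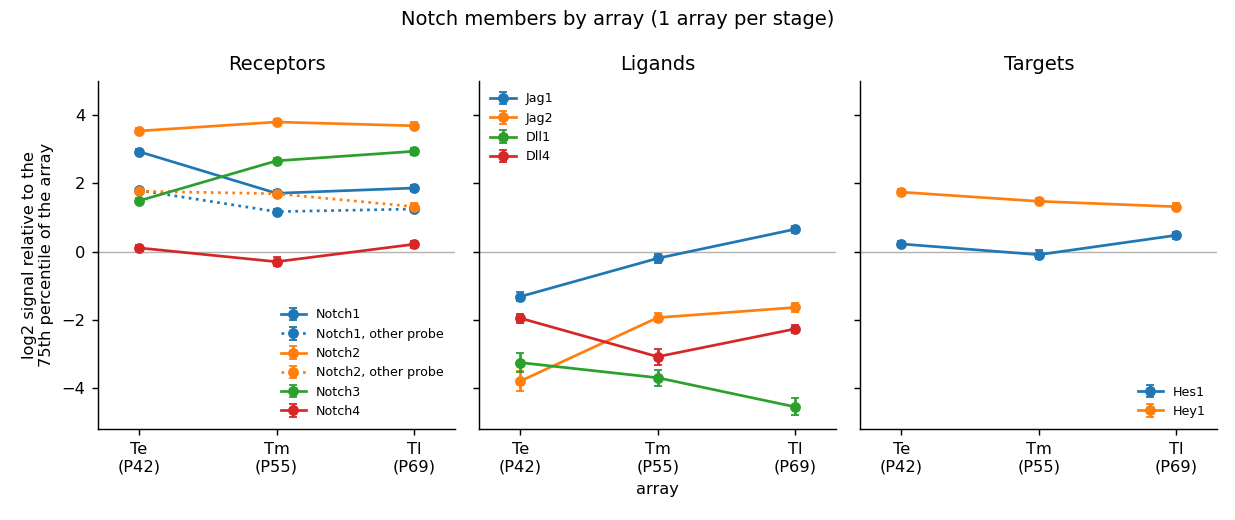
Level of each Notch gene (log2 signal relative to the 75th percentile of the array, y axis) on the Te, Tm, and Tl arrays (x axis), in panels for receptors, ligands, and targets; bars are 1 SD of repeated spots on that array at that brightness, lines join values of the same probe, and dotted lines are second probes. Notch1 reads 2.93, 1.71, and 1.87 and Notch3 1.49, 2.66, and 2.94, and heights of different probes are not comparable.

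Among the receptors, Notch1, the main Notch receptor of lymphoid and epidermal cells, had a level of 2.93 on the Te array, 1.71 on the Tm array, and 1.87 on the Tl array. It was thus lowest on the later arrays, which differed from each other by 0.15, less than the spot SD. The change was -1.22 at Tm (2.33-fold lower) and -1.07 at Tl (2.09-fold lower). A second probe gave 1.80, 1.17, and 1.25, with changes of -0.62 and -0.55, the same direction at a smaller size. The raw signals of the first probe were 3160.5, 1626.4, and 3377.1, so that the lower value at Tl rests on the scaling: without scaling its change was 0.10 at Tl and -0.96 at Tm. Over the other 4 settings Notch1 was lower at both stages, by between -1.63 and -0.55.

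Notch3, a receptor best known from pericytes and vascular smooth muscle and also made by epidermal cells, went the opposite way. Its level was 1.49 on the Te array, 2.66 on the Tm array, and 2.94 on the Tl array. Both later arrays lay above Te by far more than the spot SD, with a change of 1.17 (2.25-fold) at Tm and 1.45 (2.73-fold) at Tl, and Tl lay 0.28 above Tm. The change was positive under every scaling and background correction, between 0.73 and 1.73 at Tm and between 1.24 and 2.61 at Tl. In a bulk sample, more cells that carry a transcript and more transcript per cell cannot be told apart.

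Notch2, the receptor tied to marginal zone B cells and to some dendritic cells, had levels of 3.54, 3.80, and 3.69 at Te, Tm, and Tl. Its changes of 0.26 at Tm and 0.15 at Tl turned negative when the 75th percentile was taken over detected probes (-0.11 and -0.05), and its second probe read 1.77, 1.70, and 1.32, with changes of -0.07 and -0.45. The direction of Notch2 was thus not settled by these arrays. Notch4, a receptor of endothelial cells, had levels of 0.11, -0.29, and 0.22. It was lowest at Tm, with a change of -0.40 there that became 0.15 after scaling to the median, and a change of 0.11 at Tl, within the spot SD. Its difference of 0.51 between Tl and Tm kept its sign under each of the 6 settings, between 0.47 and 1.41.

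Among the ligands, both Jagged genes were higher at the later stages. Jag1, the ligand linked to vascular and epidermal Notch signaling, had levels of -1.31, -0.19, and 0.66 at Te, Tm, and Tl, with signals of 166.5, 434.3, and 1464.5. The 3 arrays stood apart from one another by several spot SDs, with a change of 1.12 (2.18-fold) at Tm, 1.97 (3.93-fold) at Tl, and 0.85 (1.81-fold) between Tm and Tl. Jag2, a ligand of the basal epidermis and the thymus, read -3.79 at Te, -1.93 at Tm, and -1.63 at Tl. Its change was 1.86 (3.63-fold) at Tm and 2.16 (4.46-fold) at Tl, and the step between Tm and Tl was 0.30, against a spot SD of 0.16 for that change. With a signal of 29.9 at Te, Jag2 lay near the lowest signal among detected probes of that array, 19.1. After normexp background correction, which adds an offset, the changes of Jag2 were 0.79 and 0.88, below 2-fold. Jag1 and Jag2 were higher at both stages under all 6 settings, with 0.75 to 1.68 for Jag1 at Tm and 1.66 to 3.14 at Tl.

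Dll1 had signals close to background on all arrays, and Dll4 was dim at Tm. Dll1, a ligand that acts in monocyte conversion and in the marginal zone, had levels of -3.25, -3.69, and -4.54, from 9 or 10 spots per array with an SD of 0.36, 0.15, and 0.37. The change at Tl was -1.30 (2.46-fold lower), yet the signals were nearly equal, 43.6 at Te, 38.4 at Tm, and 39.8 at Tl, and without scaling the change was -0.13. At Tm its change of -0.44 turned positive after scaling to the median (0.11) and quantile normalization (0.36). Dll4, the ligand of endothelial tip cells, read -1.95 at Te, -3.07 at Tm, and -2.26 at Tl. It was lowest at Tm, with a change of -1.13 (2.19-fold lower) that was negative under all 6 settings but smaller than 2-fold after median scaling (-0.57), quantile normalization (-0.62), normexp (-0.66), and without scaling (-0.87). At Tl its change of -0.31 became 0.21 after scaling to the median, 0.09 after quantile normalization, and 0.85 without scaling.

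The target genes moved little as scaled here. Hes1, a repressor induced by Notch in many cell types, had levels of 0.23, -0.09, and 0.48. Its change of -0.31 at Tm became 0.24 after scaling to the median. Its change of 0.26 at Tl was positive under all 6 settings and was 1.42 without scaling, past 2-fold. The step of Hes1 from Tm to Tl was 0.57, also positive under all 6. Hey1, a repressor of endothelial and smooth muscle cells, read 1.75, 1.48, and 1.32. Its changes of -0.27 and -0.43 became 0.29 and 0.09 after scaling to the median, and the change at Tl became 0.74 without scaling. Neither target was past 2-fold at either stage as scaled here.

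**Figure D2:**
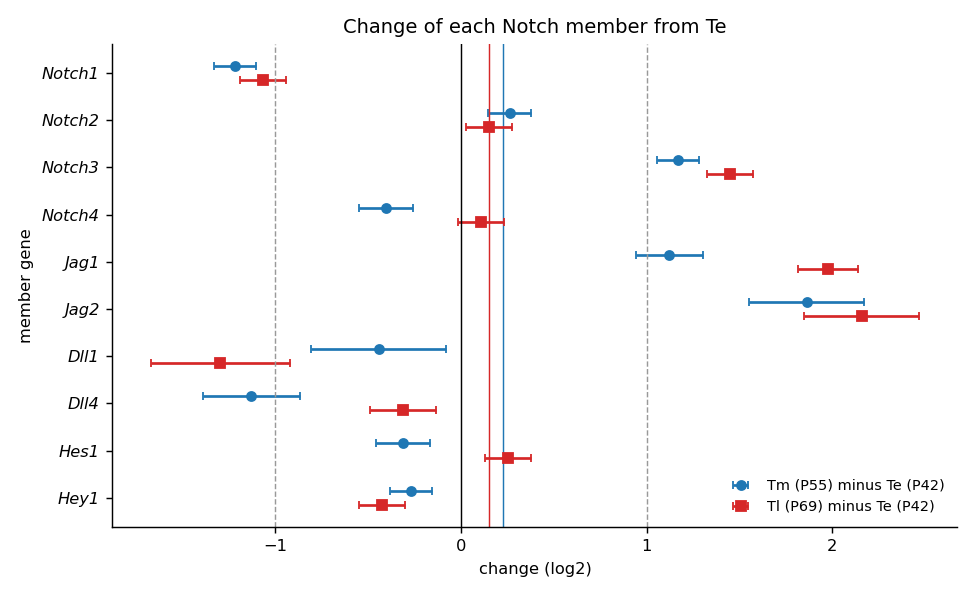
Change of each Notch gene from Te (log2, x axis) at Tm (circles) and Tl (squares), with genes on the y axis; bars are 1 SD of the difference from repeated spots, dashed lines mark 2-fold, and colored lines the median of all genes (0.23 at Tm and 0.15 at Tl). Notch3, Jag1, and Jag2 lie to the right of 1 at both stages and Notch1 to the left of -1.

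As a group, the 10 genes did not stand apart in number. At Tl, 6 were higher and 4 lower than at Te, 3 of them at least 2-fold higher (Notch3, Jag1, and Jag2) and 2 at least 2-fold lower (Notch1 and Dll1), with a median change of 0.13. Over all 16164 genes with a value, 22.2% were at least 2-fold higher and 20.7% at least 2-fold lower, with a median of 0.15. At Tm, 4 were higher and 6 lower, again with 3 at least 2-fold higher, Notch3, Jag1, and Jag2, and 2 at least 2-fold lower, Notch1 and Dll4, and a median of -0.29. There the shares over all 15842 genes were 29.2% and 16.9%, and the median was 0.23. Between Tm and Tl, 7 were higher and 3 lower, none past 2-fold, with a median of 0.29 against -0.15 over all 14844 genes, of which 7.84% were at least 2-fold higher and 11.3% at least 2-fold lower. None of the 10 reached the 10-fold that the study used as a threshold, which 1.13% of all genes passed at Tl and 1.45% at Tm in either direction. The comparisons at Tm and at Tl share the Te array. The counts are near the shares over all genes, and nothing is read from them about the Notch genes as a set.

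**Figure D3:**
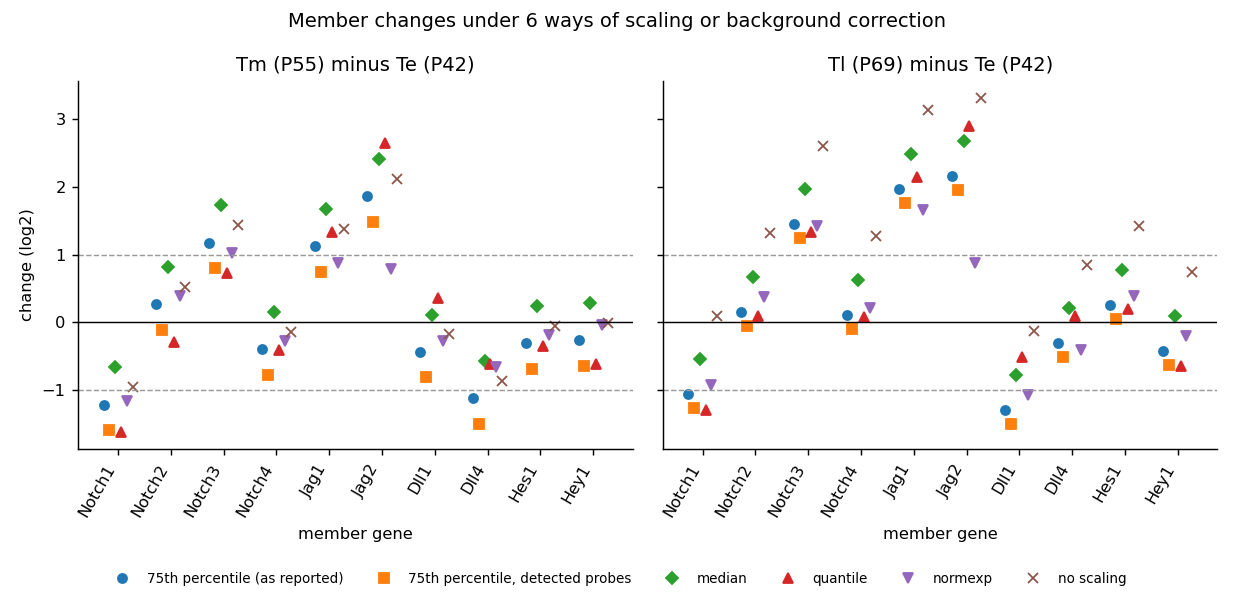
Change of each Notch gene from Te (log2, y axis) at Tm (left) and Tl (right) under 6 ways of scaling or background correction (symbols), with genes on the x axis and dashed lines at 2-fold. Notch3, Jag1, and Jag2 lie above 0 under all 6 at both stages, and Notch1 at Tl crosses 0 only without scaling (0.10).

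The wider pathway was described from a list of 57 other genes by role, of which 53 had a probe and the others were not analysed here. Of the 53, 47 were well above background on all 3 arrays and 1, Hey2, on none. At Tl, 12 of 51 genes with a value were at least 2-fold higher and 6 at least 2-fold lower than at Te, with a median of 0.19 beside 0.15 over all genes. At Tm, 12 of 51 were at least 2-fold higher and 8 at least 2-fold lower, with a median of 0.51 beside 0.23, and between Tm and Tl 4 of 49 were higher and 1 lower at that size. The shares over all genes are those given above, and nothing is read from these counts about the pathway as a set. For genes dim on 1 side the change is a bound, which concerned 4 genes at each stage against Te. Of 19 genes with several probes, the probes of 6 disagreed in direction at Tl and those of 7 at Tm.

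Of the proteases that cut the receptor, 7 of 8 were higher at Tm, where 8845 of 15842 genes were, and 3 of 8 were at least 2-fold higher, beside 29.2% of all genes. Their median at Tm was 0.75, which was 0.24 after quantile normalization. Adam10, the protease of ligand-induced cleavage, read 0.65 at Te, 1.85 at Tm, and 2.34 at Tl, with changes of 1.21 and 1.69. Adam17, which can also cut Notch, read 1.45, 2.90, and 2.15, with changes of 1.45 and 0.71. Both were higher at both stages under all 6 settings. At Tl the median of the 8 proteases was 0.12, close to that of all genes.

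In the nucleus, Rbpj, the DNA-binding partner of Notch, read 2.65 at Te, 1.27 at Tm, and 2.32 at Tl by its brightest probe, with a change of -1.37 at Tm, whereas its other probe gave 0.21 at Tm and 0.99 at Tl. Maml1, a Mastermind coactivator, read -0.22, 1.37, and 0.85, with changes of 1.59 and 1.08. Of the 8 corepressor genes, 7 were higher at Tm and 6 at Tl, beside 8845 of 15842 and 8859 of 16164 genes. At least 2-fold higher were 3 and 4 of the 8, beside 29.2% and 22.2% of all genes. The medians of the 8 were 0.88 and 1.00. The medians of the corepressors were above 0 under all 6 settings, between 0.50 and 1.43 at Tm and between 0.76 and 2.16 at Tl. The median of all genes moved with the same settings, between -0.16 and 0.86 at Tm and between -0.05 and 1.32 at Tl. Hdac1, a histone deacetylase of many repressor complexes, read 1.98, 3.40, and 3.46 by its brightest probe. Another of its 3 probes changed by 0.18 at Tm and 0.52 at Tl. Of the corepressors with several probes, those of Tle1 disagreed in direction at both stages and those of Cir1 at Tm.

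Inhibitors and turnover factors had medians of -0.15 at Tm, of changing sign among the settings, and 0.43 at Tl. Nrarp, a feedback inhibitor and itself a Notch target, read -1.56 at Te, 0.82 at Tm, and 0.21 at Tl, with changes of 2.37 and 1.76 that were positive under all 6 settings. Itch, a ubiquitin ligase for Notch, read -1.88, -2.14, and -0.67, with a change of 1.21 at Tl. Among the ubiquitin ligases of ligand endocytosis, Mib1 read -0.94, -3.07, and -1.58 and was lowest at Tm, with a change of -2.13. It was dim at Tm, with a signal of 59.1 where the lowest among detected probes was 30.2, and after normexp the change was -1.38. Mib2 read 0.00, 1.36, and 0.92. Dlk1, a noncanonical ligand, read -2.02, -1.48, and 0.03, with a change of 2.05 at Tl.

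Of the other Hes and Hey genes, 5 had a value at Tm, of which 4 were lower, 3 of them at least 2-fold, beside 16.9% of all genes, with a median of -1.08 that was negative under all 6 settings, between -1.45 and -0.52. At Tl 4 of 6 were lower, 3 of them at least 2-fold, beside 20.7% of all genes, with 2 of the 6 values being bounds. Hes3, well above background only at Te, was among those 3 with a bound of -1.55. It was also among the lower genes at Tm, with a bound of -0.58. Such a bound could only be lower, and that of Heyl at Tl (0.62), above background only there, only higher. The median at Tl was -0.90, negative in 5 settings and 0.27 without scaling. Hes5, whose upstream sequence is given above, read -0.24 at Te, -1.35 at Tm, and -1.26 at Tl, with changes of -1.11 and -1.02. Hes7, a gene of the segmentation clock, read 0.03, -1.34, and -1.04, with changes of -1.37 and -1.07. Without scaling, Hes5 and Hes7 changed by 0.14 and 0.09 at Tl. Lfng, a glycosyltransferase that tunes which ligands a receptor answers to, read 3.80, 3.09, and 2.90, with changes of -0.70 and -0.90, the latter 0.26 without scaling. Notch targets on the list thus did not move one way: as scaled here, Nrarp was at least 2-fold higher and Hes5 at least 2-fold lower at both stages, and Lfng, Hes1, and Hey1 were within 2-fold.

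**Figure D4:**
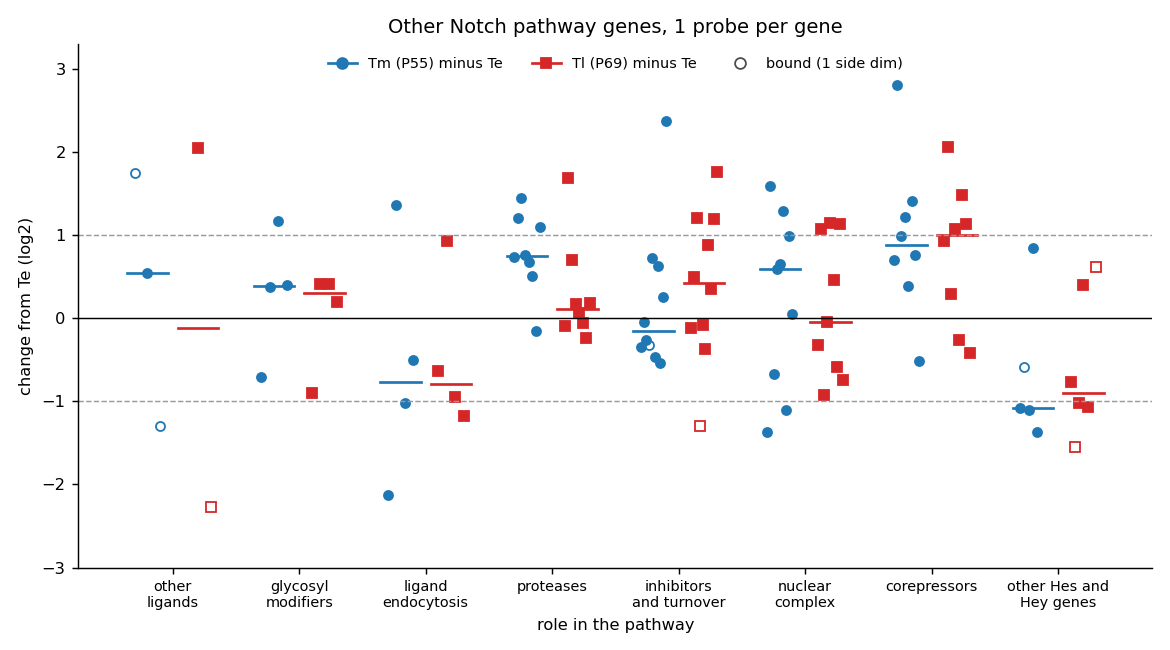
Change from Te (log2, y axis) of the other Notch pathway genes at Tm (circles) and Tl (squares) by role (x axis), 1 probe per gene; horizontal lines are medians of a role, open symbols are bounds where 1 array was dim, and dashed lines mark 2-fold. Corepressors center near 0.88 and 1.00, and the other Hes and Hey genes near -1.08 and -0.90.

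Markers of the sorted cells and of other skin cells were read on the same arrays. Of 12 macrophage markers 11 had a probe, all well above background on all arrays, and Adgre1, which encodes F4/80, read 4.82, 5.52, and 5.15 at Te, Tm, and Tl. The median change of these 11 was -0.56 at Tm and -0.42 at Tl. At each stage 3 were higher, Adgre1 among them, and 8 were lower. Over all genes, 6997 of 15842 were lower at Tm and 7305 of 16164 at Tl. The direction of the macrophage markers at Tl depended on the scaling. Without scaling, only Ptprc (-0.11) and C1qb (-0.02) of the 11 were lower at Tl. At Tm only Itgam changed sign without scaling (0.04). All 14 keratinocyte markers were detected on all arrays. At each stage 12 were at least 2-fold higher, beside 29.2% of all genes at Tm and 22.2% at Tl. Their median change was 3.29 at Tm and 2.98 at Tl, with a median level of -0.22, 2.74, and 2.62. Between Tm and Tl, 11 of the 14 were lower as scaled here, with a median of -0.27. Without scaling, only Krt17 (-0.65) and Sfn (-0.39) were lower at Tl than at Tm. Notch3, Jag1, and Jag2 were also higher than Te at both stages. Their changes from Tm to Tl were 0.28, 0.85, and 0.30, and without scaling 1.18, 1.75, and 1.20. Krt5, a keratin of basal keratinocytes, read 1.58, 5.56, and 4.91. Langerhans and dendritic cell markers had a median change of 1.48 at Tm and 0.61 at Tl over 6 genes, which split at Tl: Cd207, the Langerhans cell lectin (2.13), Epcam (2.71), and Itgax (2.18) were higher, and Ccr7 (-1.69), Flt3 (-0.93), and Xcr1 (-0.91) lower. Epcam is also on the keratinocyte list.

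Vascular markers were set beside the other members. The 10 endothelial markers, all detected on all arrays, had a median change of -0.98 at Tm, where Dll4 and Notch4 were lowest, and of -0.08 at Tl. All 10 were higher at Tl than at Tm, with a median of 0.64, beside 6334 of 14844 genes. Of 10 pericyte and smooth muscle markers, 10, 8, and 10 were detected at Te, Tm, and Tl, with a median change of -0.24 at Tm and 0.35 at Tl. That list split at Tl. There 6 of its 10 genes were higher, 3 of them at least 2-fold (Rgs5 2.67, Acta2 2.17, and Pdgfrb 1.54), beside 22.2% of all genes. The other 4 were lower, among them Abcc9 (-1.86), Mcam (-0.99), and Myh11 (-0.49). Without scaling Abcc9 changed by -0.70, but Mcam by 0.17 and Myh11 by 0.68. A second probe of Mcam gave -0.29 as scaled here. At Tm 4 were higher and 6 lower, with Acta2 at 1.61 and Myh11 at -1.74. Fibroblast markers changed by a median of -0.85 at Tm and -0.33 at Tl, T cell markers by 0.71 and 0.52, mast cell markers by -0.56 and 0.14, neutrophil markers by 0.66 and 0.66, and melanocyte markers by 1.28 and 0.09. The part of these other cells in the values of Notch3, Jag1, Jag2, Dll4, and Notch4 was not tested.

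**Figure D5:**
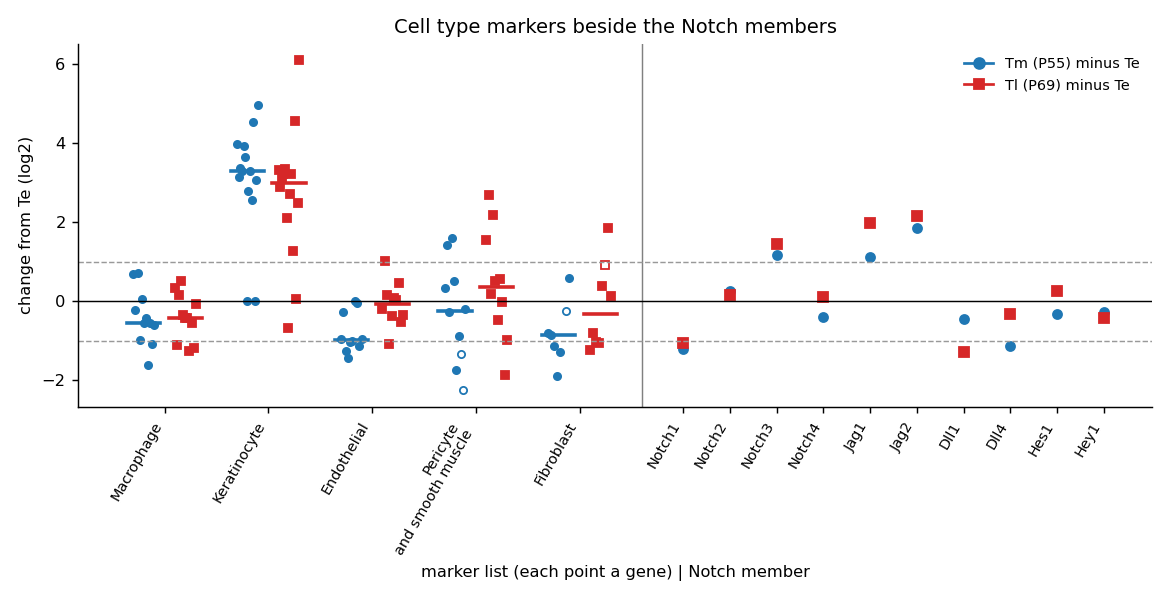
Change from Te (log2, y axis) at Tm (circles) and Tl (squares) of cell type markers, 1 point per gene with medians as lines (left), beside the 10 Notch genes (right); open symbols are bounds and dashed lines mark 2-fold. Keratinocyte markers center at 3.29 and 2.98, macrophage markers at -0.56 and -0.42, and Notch3, Jag1, and Jag2 lie between 1.12 and 2.16.

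The genes most like each Notch gene were sought by the root mean square difference of their centered levels over the 3 arrays, among 13080 genes detected on all of them. The 3 nearest were Srgap2, Adat1, and Bmx for Notch1, Pepd, Pde1b, and Stard4 for Notch2, Pdgfa, Tnfaip8, and Uba2 for Notch3, and Ipo7, Mlip, and Igf1 for Notch4. For the ligands they were Sfxn1, Mfap3, and Ggct for Jag1, Dipk1a, Cog3, and Galnt11 for Jag2, Slc13a5, Ccdc166, and C030016D13Rik for Dll1, and Ifna5, Olfr1417, and 2210417A02Rik for Dll4. For the targets they were Aqp7, Glra4, and Cops7b for Hes1, and Rbm3, Tmem37, and Gpcpd1 for Hey1. With 3 arrays many genes share a pattern by this measure: between 59 genes, for Jag1, and 552, for Notch2, lay within the spot SD of a member. None of the 10 had another Notch gene among its 3 nearest.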

How the data were processed

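Per the labels and the methods of the study, RNA of CD11b+Gr1-F4/80+ macrophages was amplified, labeled with Cy3, and hybridized to 1 Agilent mouse array per stage, and the arrays were read with Feature Extraction 10.7.3.1. All arrays lay on 1 slide. The files that the authors deposited per array give linear spot intensities, background-corrected by the software. A further deposited table holds log2 values of 36409 probes, whose normalization is not given in the sources used here, and which holds 6 of the 10 Notch genes. Columns of this table were set against the scanner files over 36380 shared probes.

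From the intensities, control spots and outlier spots (162 to 281 per array) were left out, spots of a probe were averaged, and log2 signals were expressed against the array's own 75th percentile over the 55618 probes measured on all 3 arrays. No spot was saturated. A probe was called well above background when at least 0.5 of its spots were, which held for 71.4%, 59.7%, and 68.7% of probes from Te to Tl. That percentile was 21.7, 16.4, and 32.3 times the lowest signal among detected probes. A change was given where 1 of the arrays compared was above background, as a bound if the other was not. Each gene was represented by its brightest probe, named through RefSeq transcripts (GRCm38.p6), and other probes are given for the Notch genes. The steps were tested on simulated data.

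The Notch genes, pathway roles, and marker lists were chosen with earlier results of these data known. Pathway genes are named in the text where they are Rbpj, Adam10, or Maml1, or among the 12 with the largest range over the arrays, except for genes that are not reported here. Hes5, Lfng, Hey2, Tle1, Cir1, and the markers singled out were chosen after their values were seen. Alternatives were the 75th percentile over detected probes, the median, quantile normalization, no scaling, normexp (limma 3.58.1, offset 50), the log2 table of the authors, detection on both arrays, detection by a positive and significant signal, no detection filter, inclusion of outlier spots, a median of all probes of a gene, thresholds of 1.5-fold and 10-fold, and exchanged Tm and Tl arrays. Python 3.11.15 was used.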

Additional observations from a re-analysis of the deposited data

How the results depend on the processing

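The number of arrays and the scaling limit these results, and dim probes (Jag2 at Te, Dll1, and both Dll4 and Mib1 at Tm) limit them further. As reported, 3 Notch genes were at least 2-fold higher at both stages. At each stage 2 were at least 2-fold lower, Notch1 at both, Dll1 only at Tl, and Dll4 only at Tm. The median change of the other pathway genes was 0.19 at Tl and 0.51 at Tm. With the 75th percentile over detected probes, the pathway medians were -0.018 at Tl and 0.14 at Tm, and 1 Notch gene was 2-fold higher at Tm. Scaled to the median, 0 were 2-fold lower at either stage and the pathway medians were 0.71 and 1.08. Quantile normalization left 1 gene 2-fold lower at each stage, 2 genes 2-fold higher at Tm, and a pathway median of 0.29 at Tm. Without scaling, 6 genes were 2-fold higher at Tl, 0 were lower at either stage, the pathway medians were 1.35 and 0.77, and Notch1 at Tl reversed to 0.10. Normexp left 2 genes 2-fold higher and 1 lower at Tl, and 1 higher and 1 lower at Tm. The median over a gene's probes left 1 gene 2-fold lower at each stage, and at 10-fold all 4 counts were 0. In the authors' log2 table, as labeled, the pathway median was 0.60 at Tl and 0.54 at Tm. Its Tl column matches the scanner file assigned to Tm and the reverse. It was read only for pathway genes whose probe it holds, so these medians are not like for like with those above. With Tm and Tl exchanged the pathway medians were 0.51 at Tl and 0.19 at Tm. Under the other filters on dim probes, with outlier spots kept, and at 1.5-fold, the member counts were unchanged or within 1.5 times. Notch3, Jag1, and Jag2 kept their direction under all alternatives run.

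Scaling also moved all genes together. The median change of all genes at Tl was 0.15 as reported, -0.05 over detected probes, 0.65 with the median, 0.30 with quantiles, 1.32 without scaling, and 0.03 with normexp, and at Tm 0.23, -0.16, 0.86, 0.32, 0.52, and 0.12. The genes at least 2-fold higher and lower at Tl were 3584 and 3351 as reported, 2681 and 4128, 6324 and 1690, 4506 and 2156, 9709 and 581, and 2485 and 3156 in the same order. At Tm they were 4623 and 2672, 3088 and 4109, 7027 and 1195, 4475 and 2092, 5783 and 1860, and 3574 and 1700. No cause of the differences between settings was tested. No paired analysis was possible because each stage has 1 array.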
